A study of Homo sapiens with 6 samples.

Results

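The genes described here are 57 human DNA repair genes, chosen by name: damage sensors and checkpoint kinases, the factors of homologous recombination, the Fanconi anaemia pathway, nucleotide and base excision repair, non-homologous end joining, mismatch repair, the translesion polymerase POLH and the RecQ helicases. Every alternative splicing (AS) event of these genes with a mean of at least 10 junction reads over the 6 libraries was taken, which gave 591 events out of the 78336 events that the study listed. Of these, 589 could be analysed, in 55 of the 57 genes. ERCC5 had no listed event, and the single event of LIG4 had a mean of 9.5 reads. The other 2 events, of XRCC5 and XRCC6, had count lists whose digits could be divided in more than 1 way and were left out.

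The cells were NCI-H1975, an established lung adenocarcinoma (LUAD) line grown from a human tumour. They were transfected with a pcDNA3.1 plasmid that carries SAM68 or with the empty pcDNA3.1 plasmid at 2 µg per well. After 48 h the RNA was collected, which gave 3 libraries per group. Both groups therefore received a lipofectamine reagent and a plasmid. SAM68 was raised above its own level in a single cell line and no DNA damaging agent was applied. The files give no replicate numbers, and libraries are named here by their place in the list of a group.

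DNA repair pathways each handle a kind of lesion. Excision pathways remove damaged bases or bulky adducts from 1 strand and copy the other, mismatch repair corrects copying errors, and double-strand breaks are joined end to end or copied from a sister chromatid. The kinases ATM and ATR sense breaks and stalled forks and pass the signal to CHEK2 and CHEK1. Many of these genes are long, have many exons and are known to give minor transcripts in which an exon is skipped or a splice site is moved by a few bases. SAM68, the product of KHDRBS1, is an RNA-binding protein of the STAR family that binds U- and A-rich RNA, such as UAAA, and regulates splicing.

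The SE table held 16951876 to 19737729 junction reads per library, and one read can count in several events. KHDRBS1 itself was measured at 311, 329 and 316 rpm (reads per 1000000 reads of the best-read event of each gene) in the control libraries and at 1231, 1260 and 1277 rpm in the SAM68 libraries, a log2 fold change of 1.98 with an SE of 0.047 (limma, adjusted p = 9.9e-22). No library was a copy of another: the chi-square of their counts, divided by its degrees of freedom, was 3.15 to 4.56 within groups and 4.49 to 6.41 between them. Of 11 epithelial markers of LUAD, 4 had 10 reads or more (KRT7, KRT8, KRT18 and MUC1), with a summed level of 735 to 998 rpm in control and 764 to 775 rpm in SAM68 libraries. NAPSA, a further marker of this list, had an event but fewer than 10 reads. The markers NKX2-1, SFTPB, KRT19, EPCAM, CDH1 and EGFR had no listed event, which says nothing of their level, since a gene without a listed event has no reads in these tables. The same holds for 4 of 5 immune, all 4 endothelial and 4 of 5 fibroblast markers, so that these tables do not show whether such cells were present. The 1 immune and 1 fibroblast marker with an event were at no more than 1.43 rpm in any library.

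The tables list 5 kinds of event. A skipped exon (SE) is left out or kept whole, an alternative 3ʹ or 5ʹ splice site (A3SS or A5SS) shortens or lengthens an exon, a retained intron (RI) stays in the RNA, and mutually exclusive exons (MXE) are counted as a pair of which the RNA holds 1 member. PSI, the percent spliced in, is the share of the RNA that holds the alternative part, estimated from the reads that cross its junctions after division by the effective length of each form. It holds for RNA that joins the flanking exons of that event, so that 1 exon can have several PSI values. For MXE it is the share of the upstream exon of the pair. ∆PSI is the SAM68 mean less the control mean, in points. The members held 405 SE, 104 MXE, 40 A3SS, 30 A5SS and 10 RI events, with 505 distinct alternative parts, so that many events share reads and are not independent measurements. FANCA had the most events (34), followed by RAD51C (30) and ERCC1 (28), and BLM, WRN and XPC had 1 each.

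Most of these exons were used in nearly all transcripts. The mean PSI over the 6 libraries was over 95% or under 5% in 395 of 589 events (67.1%). In SE events it was over 95% in 296 of 405 (73.1%, against 65.3% of all SE events in the study) and over 99% in 198. Of the 405 SE events, in which an exon can recur, 324 concerned an exon of the canonical transcript in GENCODE 44. For 206 SE events the skipping junction is in no transcript of that annotation. The median PSI of SE events was 98.9% among the members and 98.3% among all 47450 SE events with 10 reads.

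MXE events of these genes mostly paired exons that are found together in one transcript. In 94 of 104 MXE events both exons belong to the canonical transcript, and in 86 they are neighbours there. The median PSI of those 94 events was 49.985%. For 84 of these pairs both exons also had an SE event, and in 66 of them both exons had an SE PSI over 95%. A PSI near 50% in such an event is the ratio of reads beside 2 exons that are both kept. Exons 9 and 10 of XRCC6 show this: the pair had an MXE PSI of 47.0%, while the exons had SE PSI values of 99.9% and 100% over the 6 libraries.

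No event of the DNA repair genes was called between SAM68 and control cells. A call needed both an adjusted p under 0.05 and a ∆PSI of 10 points or more in either direction, in a quasi-binomial model of the 2 read counts whose spread between libraries was moderated with limma and whose p-values were adjusted over all events of a type. Of the 589 events, 0 were called and 0 passed the adjusted p alone, where 0.0256% of all 66380 tested events in the study were called and 0.0964% passed the adjusted p. The smallest adjusted p of a member was 0.0917. Without adjustment, 39 member events (6.62%) had a p under 0.05, against 8.42% of all events, and of these 16 had a higher and 23 a lower PSI in SAM68 cells. They lay in 21 genes, and only 7 of the 39 differed by 10 points or more. When limma was run on logit PSI, and when each event kept its own spread, 0 member events passed as well, where only 0.00603% and 0.00301% of all events did. With so few passes this 0 says little about the members. In a likelihood ratio test that pools the libraries of a group, and so ignores the spread between them, 32 passed the adjusted p (5.43%, against 6.24% of all events) and 7 of these were called (1.19%, against 2.04% of all events).

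The median absolute ∆PSI was 1.33 points among the members and 1.24 points among all events. By type it was 0.993 and 1.09 points in SE, 3.44 and 2.59 in MXE, 3.08 and 1.55 in A3SS and 2.38 and 1.38 in A5SS events. The median ∆PSI was 0.011 points among the members and 0.0050 points among all events, and none of these medians was tested. The 3 control values and the 3 SAM68 values did not overlap in 30 member events (5.09%), against 6.10% of all events. A ∆PSI of 10 points or more was seen in 36 member events (6.11%, against 7.16% of all), and 32 of these 36 had fewer than 50 reads per library on average. Among the 446 member events with 50 reads or more, 4 differed by that much (0.897%, against 1.86% of all such events).

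**Figure D1:**
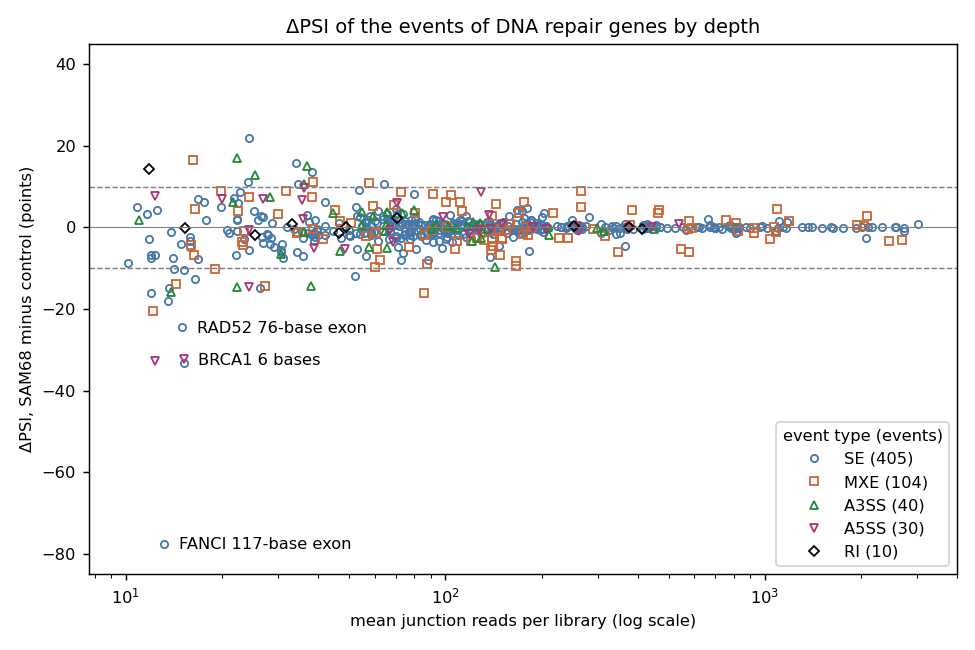
Each mark is 1 of the 589 events of the DNA repair genes, placed by its mean junction reads per library (log scale) and its ∆PSI in points (SAM68 minus control), with the type of event by shape and colour and dashed lines at 10 points. The wide differences sit at low depth: the FANCI exon at -77.5 points had a mean of 13.2 reads, and exon 8 of ERCC1, with a mean of 2067 reads, lies at -2.62 points.

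A set of 48 events in 25 genes was read deeply enough, and used both ways often enough, to serve as a map of alternative splicing in these genes. These are the SE, A3SS, A5SS and RI events with a mean PSI of 10% to 90% and 20 reads or more per library on average. The cut-off was set after the values were seen and does not use the difference between groups. They comprise 28 SE, 11 A3SS, 8 A5SS and 1 RI event with 47 distinct parts, and 26 lie in the coding sequence of the canonical transcript. Of the 48, 29 had a higher and 19 a lower mean PSI in SAM68 cells, 5 had an unadjusted p under 0.05 and 0 passed the adjusted p (background as above). The 95% interval of ∆PSI stayed within 10 points of 0 in 9 of them and reached further in 39, and the median distance from ∆PSI to the end of its interval was 10.9 points, so that for most of them a shift of 10 points could not be told from none.

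The sequences below show the alternative parts that the results turn on, read 5ʹ to 3ʹ on the strand of the gene from GRCh38. The first set is shown because each holds 2 acceptor sites next to each other. In each, capitals mark 2 acceptor triplets ending in AG, and the RNA either keeps or drops the second triplet.
BRCA1 exon 7, chr17:43099868-43099900, minus strand: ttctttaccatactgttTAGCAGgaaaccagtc
BRCA1 exon 13, chr17:43076602-43076634, minus strand: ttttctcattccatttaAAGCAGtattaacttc
LIG1 exon 7, chr19:48151327-48151359, minus strand: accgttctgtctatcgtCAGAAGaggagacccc
MRE11 exon 16, chr11:94445881-94445913, minus strand: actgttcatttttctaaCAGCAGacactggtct

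The second set holds skipped exons of the canonical transcripts, with the exon in capitals and 20 bases of each flanking intron, and is shown because these coding exons were read deeply and in 2 forms.
ERCC1 exon 8, chr19:45413943-45414054, minus strand: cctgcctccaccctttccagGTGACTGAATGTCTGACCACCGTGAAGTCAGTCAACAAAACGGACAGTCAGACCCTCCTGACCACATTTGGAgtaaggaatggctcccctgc
CHEK2 exon 8, chr22:28703485-28703586, minus strand: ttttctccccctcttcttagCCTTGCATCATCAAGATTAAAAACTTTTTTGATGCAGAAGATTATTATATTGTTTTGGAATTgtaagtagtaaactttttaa
FANCA exon 30, chr16:89758557-89758725, minus strand: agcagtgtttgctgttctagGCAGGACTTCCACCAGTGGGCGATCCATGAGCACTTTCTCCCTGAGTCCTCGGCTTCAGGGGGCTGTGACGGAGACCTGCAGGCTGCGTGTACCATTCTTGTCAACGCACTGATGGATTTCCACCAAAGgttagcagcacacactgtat

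The third set shows exons with 2 donor sites, where capitals mark the bases that the longer form keeps.
FANCI exon 2, chr15:89247715-89247743, plus strand: ccctgagagaagGTGATgtgagtattagg
PARP2 exon 2, chr14:20345076-20345138, plus strand: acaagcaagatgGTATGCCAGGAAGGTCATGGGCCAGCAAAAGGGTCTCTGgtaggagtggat

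The motif TAAA, the DNA form of the UAAA that SAM68 binds, was searched on the transcript strand in the 100 intron bases before and the 100 intron bases after each skipped exon. Of the 27 distinct alternative exons of the members, 10 had it before and 17 after the exon (37% and 63%). Among all 4650 exons of the study with a PSI of 10% to 90% and 20 reads, the shares were 39.6% and 40.5%. Over all 336 member exons with 10 reads the shares were 44.3% and 49.1%, beside 40.9% and 42.1% of all such exons, and none of these contrasts was tested. CHEK2 exon 8 had 3 copies after the exon, FANCA exon 30 had 1, and ERCC1 exon 8 had none on either side. A match is a description of the letters and not a binding site.

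The damage sensors and checkpoint kinases had 87 events in 8 genes, of which 3 had an unadjusted p under 0.05. ATR is the kinase that answers to stalled replication forks. Its exon 41 (144 bases, chr3:142465097-142465240) was kept at a PSI of 100%, 96.7% and 100% in control and of 91.7%, 95.8% and 85.7% in the SAM68 libraries, with 69 to 120 reads. The groups did not overlap, and the ∆PSI of -7.85 points (95% interval -14.7 to -1.02) did not pass the test across all SE events (quasi-binomial test, adjusted p = 0.542).

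CHEK2, the checkpoint kinase downstream of ATM, skipped its 62-base exon 8 in a minor share of its RNA. The PSI of this exon was 85.5%, 83.5% and 94.6% in control and 90.6%, 86.3% and 91.4% in SAM68 libraries, which overlap (∆PSI 1.56, interval -5.35 to 8.47). The length of 62 is not a multiple of 3. CHEK2 has near-identical copies of its 3ʹ exons elsewhere in the genome, so that reads there are uncertain.

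CHEK1, the kinase downstream of ATR, had a 130-base exon that overlaps canonical exon 13 with other boundaries, with a PSI of 70.9%, 73.2% and 75.1% in control and 74.5%, 81.2% and 55.7% in SAM68 libraries. MRE11 is the nuclease of the complex with RAD50 and NBN that binds broken ends. The CAG triplet at its exon 16 was kept in 85.5%, 89.0% and 78.3% of the RNA in control and in 91.8%, 92.0% and 79.8% in SAM68 libraries. The groups overlapped in both genes, and the third SAM68 library of CHEK1 lay below every control.

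NBN had a 50-base exon outside the canonical transcript at 10.8% to 14.1% in control and 8.63% to 10.3% in SAM68 libraries, which did not overlap but differed by only -2.75 points (adjusted p = 0.565). The best-read NBN event with an intermediate PSI paired exons 13 and 14 as MXE, with a PSI of 55.2%, 56.2% and 58.3% in control and 54.1%, 56.7% and 53.9% in SAM68 libraries. Both NBN exons were near full inclusion as SE events (98.1% and 99.8%). An 88-base exon of ATM outside the canonical transcript, read 3 to 49 times, varied widely within each group, with a PSI of 20.9%, 13.3% and 100% in control and 100%, 0% and 100% in SAM68 libraries.

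Homologous recombination, which copies the sister chromatid over a break, had 126 events in 10 genes and 16 of the 48 alternative events, the most of any group. Of the 126 events, 8 had an unadjusted p under 0.05. BRCA1, which helps to load the recombinase, used both of its acceptor repeats. At exon 7 the CAG triplet was kept in 59.6%, 86.2% and 68.4% of the RNA in control and in 94.0%, 93.5% and 78.0% in SAM68 libraries, with 16 to 31 reads. At exon 13 it was kept in 69.7%, 61.9% and 68.6% in control and in 96.6%, 81.6% and 67.3% in SAM68 libraries, with 29 to 45 reads. Both means were higher in SAM68 cells, by 17.1 and 15.1 points, but the groups overlapped, both intervals include 0 and both had an adjusted p of 0.669. The difference at exon 13 leaned on the first SAM68 library, at 96.6%.

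The large exon 10 of BRCA1 has an internal donor site, whose use removes 3309 bases of coding sequence. The long form made up 91.7%, 87.1% and 88.2% in control and 65.2%, 58.3% and 100% in SAM68 libraries (19 to 32 reads, ∆PSI -14.5, interval -37.8 to 8.84). A 6-base part at a donor of an exon that overlaps exon 1, outside the coding sequence (chr17:43125271-43125276) had a PSI of 62.8%, 62.3% and 52.4% in control and of 49.1%, 10.7% and 20.8% in SAM68 libraries. These groups did not overlap, on 11 to 19 reads, and the difference of -32.3 points did not pass (adjusted p = 0.612).

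RAD51C, a paralogue of the recombinase, had 30 events. Its exon 6 (67 bases, chr17:58720746-58720812) was named by the rule, with a PSI of 100%, 96.7% and 100% in control and 84.3%, 97.5% and 96.1% in SAM68 libraries (∆PSI -6.28, adjusted p = 0.565), and the groups overlapped. Exons 7 and 8, both of 61 bases, were left out together in part of the RNA: the junction from exon 6 to exon 9 had 8, 12 and 2 reads in control and 3, 6 and 3 in SAM68 libraries, and these reads count against both exons. In the better-read events between neighbouring exons, exon 7 was kept at 95.2% and exon 8 at 99.6%. The best-read RAD51C pair, exons 3 and 4 as MXE, had a PSI of 53.8% ± 3.02 in control and 51.9% ± 1.09 in SAM68 cells (SD, n = 3), and the exons were kept in 97.9% and 99.7% of the RNA as SE events.

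RAD51D, a further paralogue, kept its 119-base exon 3 in 56.2%, 62.1% and 63.0% of the RNA in control and in 65.8%, 54.5% and 49.9% in SAM68 libraries, at 17 to 33 reads, and at 67.5% and 72.1% over the 6 libraries in its other 2 events. EXO1, the exonuclease that resects broken ends, used its noncoding exon 3 (105 bases) in 18.5%, 13.7% and 46.0% of the RNA in control and in 38.8%, 45.5% and 41.0% in SAM68 libraries. One control library lay above all SAM68 libraries, and the mean difference of 15.7 points did not pass (adjusted p = 0.565). The 108-base form of this exon, counted against the same skipping reads, had a PSI of 32.8%, 45.5% and 66.0% in control. Its SAM68 values were 58.5%, 59.2% and 53.8%, a smaller difference of 9.08 points that did not pass either.

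RAD52, an annealing factor, had the most varied splicing of the group, with 7 of the 48 alternative events. A 151-base exon outside the canonical transcript (chr12:926796-926946) had a PSI of 6.45%, 10.2% and 14.6% in control and of 24.6%, 18.4% and 29.1% in SAM68 libraries, which did not overlap (∆PSI 13.6, interval 3.15 to 24.1, adjusted p = 0.472). A 52-base extension at exon 9 was used in 7.24%, 31.5% and 15.2% in control and in 7.39%, 0% and 3.74% in SAM68 libraries. Its exon 10 (102 bases) had a PSI of 100%, 92.8% and 90.3% in control and of 86.9%, 72.2% and 88.5% in SAM68 libraries, which did not overlap either, although the interval of the difference includes 0 (-23.8 to 0.161). The skipping reads were 0, 3 and 4 in control and 4, 8 and 3 in SAM68 libraries. Against these same reads, the 122-base form of exon 10 had a PSI of 100%, 82.3% and 76.4% in control. Its SAM68 values were 79.5%, 58.8% and 75.7%, so that the groups of this form overlapped. A 76-base exon near the 5ʹ end had a PSI of 34.6%, 21.4% and 27.0% in control and of 6.26% and 0% in SAM68 libraries, and the third SAM68 library had no reads. These RAD52 events were read 0 to 72 times per library, and none passed the adjusted p. XRCC3, another paralogue of the recombinase, extended its exon 3 by 94 bases in 11.5% to 15.7% of the RNA in control and in 9.68% to 12.3% in SAM68 libraries.

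The Fanconi anaemia pathway, which unhooks crosslinks between the strands, had 103 events in 6 genes, and 7 had an unadjusted p under 0.05. FANCI, which with FANCD2 forms the clamp that the core complex ubiquitinates, held the member event with the smallest p. It is a 117-base exon between the first exon and exon 2 and outside the canonical transcript. In control libraries 9, 0 and 14 reads supported inclusion and 0 supported skipping. In SAM68 libraries 6, 5 and 9 reads supported inclusion and 13, 11 and 12 reads supported skipping. The inclusion reads were thus alike in number (23 in control and 20 in SAM68 cells), and the skipping reads, 36 in all, were found in the SAM68 libraries alone. The 0 skipping reads among 23 control reads allow a share of reads of up to 13.0%, by counting error only.

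PSI was 100% in the 2 control libraries with reads and 19.6%, 19.4% and 28.4% in the SAM68 libraries, a ∆PSI of -77.5 points that misses the threshold (quasi-binomial test moderated with limma, adjusted p = 0.0917). With 1 spread shared by all SE events, an alternative chosen after seeing the data, the adjusted p was 0.0084, and no other member event was called, where 0.188% of all events were called and 0.452% passed the adjusted p. It was 0.585 when each event kept its own spread (0.00301% of all events passed there), 0.896 with limma on logit PSI (0.00603%) and 0.519 with no minimum of reads (0.00389%). Without any 1 library it was 0.639 to 0.676 (0.00302% to 0.00452%). It was 0.0561 with adjustment over all 5 types (0.0663%). Under the likelihood ratio test on pooled counts, which carries no spread between replicates and passed 6.24% of all events, it was 1.64e-06. Exon 2 of FANCI, measured from another end of the first exon, had a mean of 102 reads per library and a PSI of 97.7% to 100%. The 117-base exon lies partly in sequence that is repeated in the genome. Whether reads from other copies were counted here was not tested.

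**Figure D2:**
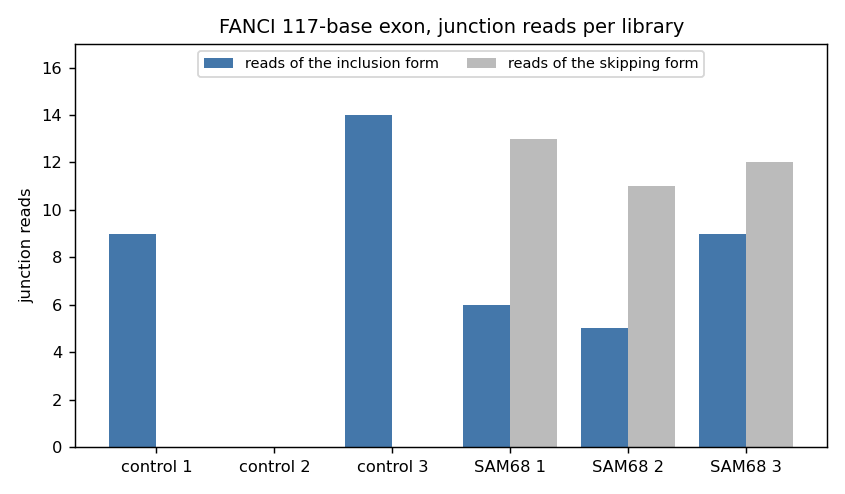
Bars give the junction reads of the inclusion form (blue) and of the skipping form (grey) of the 117-base FANCI exon in each of the 6 libraries. The second control library has no reads of either form, and skipping reads (11 to 13) appear in the SAM68 libraries.

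At the 2 donor sites of FANCI exon 2, shown above, the 5 bases gtgat were kept in 89.4%, 80.7% and 81.7% of the RNA in control and in 89.0%, 94.4% and 94.9% in SAM68 libraries. The groups overlapped by 1 library, and the ∆PSI of 8.82 points (interval 2.14 to 15.5) did not pass the test (adjusted p = 0.586). The long form is the canonical one and 5 is not a multiple of 3.

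FANCA, a scaffold of the core complex, gave the event named by the rule, the pair of exons 32 and 33 as MXE (chr16:89749730-89749902 for exon 32). Its PSI was 40.6%, 38.0% and 41.8% in control and 51.6%, 47.1% and 48.8% in SAM68 libraries. The groups did not overlap, and the ∆PSI of 9.02 points (interval 1.98 to 16.1) had an adjusted p of 0.367. As SE events the same exons were kept at 99.5% and 99.9%, so that this PSI is again a ratio of reads beside 2 kept exons. FANCA exon 30, 129 bases and a multiple of 3, was skipped in part: its PSI was 73.9%, 80.9% and 89.0% in control and 73.0%, 80.1% and 73.7% in SAM68 libraries, with 135 to 229 reads (∆PSI -5.68, interval -14.2 to 2.83). FANCG, another part of the core complex, had its best-read pair, exons 12 and 13, at 57.1% ± 1.98 in control and 51.2% ± 6.72 in SAM68 cells (SD, n = 3).

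Nucleotide excision repair, which cuts bulky adducts and ultraviolet damage out of 1 strand, had 73 events in 6 of 7 genes, and 4 had an unadjusted p under 0.05. ERCC1, which with its partner forms the nuclease that cuts on the 5ʹ side of the lesion, was the best-read member. Its 72-base exon 8 had a PSI of 79.5%, 80.3% and 83.5% in control and of 80.1%, 77.6% and 77.8% in SAM68 libraries, on 1853 to 2382 reads per library. The groups overlapped, and the ∆PSI was -2.62 points with a 95% interval of -4.95 to -0.283 (adjusted p = 0.565), an interval that excludes a shift of 5 points. This event lies between exon 7 and the acceptor of exon 9. In the events with other flanks exon 8 was kept at 99.6% (493 reads) and 97.9% (695 reads), and at 0.483% on 39.5 reads. The 69-base exon 9 was kept at 99.9% where it follows exon 8 (1098.5 reads). In the minor RNA without exons 7 and 8, measured from exon 6 (158 reads), it had a PSI of 65.5%, 65.6% and 64.7% in control and of 68.5%, 69.2% and 66.5% in SAM68 libraries (∆PSI 2.78, interval -5.22 to 10.8, adjusted p = 0.662).

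ERCC1 exon 3 (216 bases) was kept in 98.6%, 99% and 98.5% in control and in 99.4%, 99.3% and 100% in SAM68 libraries on 2753 to 3291 reads, without overlap, a difference of 0.842 points with an adjusted p of 0.38. ERCC2, a helicase of the TFIIH complex, had the event named by the rule, exons 12 and 13 as MXE. The PSI of this pair was 61.8%, 56.7% and 60.8% in control and 56.2%, 50.3% and 54.7% in SAM68 libraries, which did not overlap (∆PSI -6.02, interval -11.2 to -0.885, adjusted p = 0.523). Both exons were kept at 99.8% or more as SE events. XPA, which checks the damaged strand, had a 231-base exon outside the canonical transcript at 9.30% to 15.8% in control and at 2.78% to 22.5% in SAM68 libraries.

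Base excision and single-strand break repair had 91 events in 11 genes, of which 5 had an unadjusted p under 0.05. LIG1, the ligase that seals the patch, kept the AAG triplet of exon 7 in 80.3%, 67.4% and 76.3% of the RNA in control and in 68.6%, 65.7% and 74.3% in SAM68 libraries (53 to 74 reads, ∆PSI -5.11, interval -17.3 to 7.06). PARP2, which marks strand breaks with ADP-ribose, kept 39 extra bases of exon 2 in 39.6%, 22.6% and 25.5% in control and in 27.1%, 29.8% and 40.2% in SAM68 libraries. The groups overlapped in both genes.

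POLB, the gap-filling polymerase, kept its 58-base exon 2 in a minority of the RNA. The PSI was 42.7%, 38.8% and 34.6% in control and 30.8%, 43.9% and 34.2% in SAM68 libraries (100 to 153 reads, ∆PSI -2.42, interval -11.4 to 6.51). Its 87-base exon 11 ranged from 71.2% to 92.0% over the 6 libraries, with a mean of 97.9% in a second event on 42.0 reads, and an exon of 105 bases outside the canonical transcript from 24.0% to 38.5%. UNG, the uracil glycosylase, gave the event named by the rule, exons 4 and 5 as MXE, with a PSI of 57.5%, 56.3% and 62.4% in control and 53.2%, 54.0% and 53.2% in SAM68 libraries. The groups did not overlap (∆PSI -5.29, adjusted p = 0.581), and both UNG exons were kept at over 99.9% as SE events. XRCC1, the scaffold of single-strand break repair, had the best-read pair, exons 3 and 4, at 48.1% ± 2.49 in control and 49.3% ± 2.75 in SAM68 cells (SD, n = 3).

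Non-homologous end joining, which ligates broken ends directly, had 38 events in 4 of 5 genes, and 5 had an unadjusted p under 0.05. None of its events with 50 reads differed by 5 points or more. XRCC6 and XRCC5 are the 2 subunits of the Ku ring that holds a broken end, and PRKDC is the kinase that Ku recruits. XRCC6 exons 9 and 10 as MXE, the pair described above, had a PSI of 47.5%, 47.0% and 50.9% in control and of 46.3%, 45.7% and 44.5% in SAM68 libraries on 2510 to 2903 reads. The groups did not overlap, and the ∆PSI was -2.98 points (interval -5.42 to -0.526, adjusted p = 0.431). XRCC6 exon 3, at 2459 to 2954 reads, had the smallest p of the pathway (adjusted p = 0.332) for a PSI of 99.3%, 99.6% and 100% in control and 99%, 99% and 98.5% in SAM68 libraries.

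PRKDC skipped its 93-base exon 80 in a minor share of the RNA in either group. The PSI was 77.8%, 75.9% and 77.1% in control and 82.2%, 79.4% and 73.3% in SAM68 libraries, on 1024 to 1292 reads (∆PSI 1.38, interval -2.20 to 4.95). Among the 48 alternative events only ERCC1 exon 8 had more reads, and the PRKDC interval also excludes a shift of 5 points in either direction.

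Mismatch repair had 47 events in 5 genes, and 3 had an unadjusted p under 0.05, all of PMS2. PMS2, the nuclease subunit of the heterodimer that acts after mismatch recognition, has near-identical pseudogene copies, so that its reads are uncertain. Its second exon in a form of 135 bases (chr7:6005892-6006026) was named by the rule, with a PSI of 82.4%, 97.5% and 84.3% in control and 95.9%, 100% and 100% in SAM68 libraries. The groups overlapped (∆PSI 10.6, interval 2.35 to 18.9, adjusted p = 0.529). MSH6, which recognises single-base mismatches, had exons 3 and 4 as MXE at 40.1% ± 6.14 in control and 43.7% ± 2.06 in SAM68 cells (SD, n = 3). MLH3 kept its 72-base exon 7 in 36.1%, 65.1% and 63.3% of the RNA in control and in 74.4%, 45.2% and 78.4% in SAM68 libraries, at 11 to 35 reads.

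POLH, the polymerase that copies past ultraviolet damage, had 7 events, of which 3 had an unadjusted p under 0.05, all lower in SAM68 cells. The one named by the rule is exon 2 (141 bases, chr6:43582316-43582456), with a PSI of 98.5%, 96.4% and 100% in control and 92.9%, 83.4% and 97.1% in SAM68 libraries, which overlap (∆PSI -7.15, adjusted p = 0.514). The best-read POLH pair, exons 4 and 5 as MXE, had a PSI of 44.7% ± 3.48 in control and 50.6% ± 7.20 in SAM68 cells (SD, n = 3).

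The RecQ helicases, which unwind joint molecules, had 17 events in 4 genes, and 1 had an unadjusted p under 0.05. RECQL uses alternative parts near its start. A 157-base extension (chr12:21501216-21501372) had a PSI of 92.1%, 74.9% and 77.5% in control and 75.3%, 64.5% and 75.5% in SAM68 libraries (102 to 188 reads, ∆PSI -9.73, interval -20.6 to 1.15, adjusted p = 0.679), and the groups overlapped. An exon of 46 bases beside it had a PSI of 90.8%, 86.2% and 82.3% in control and 84.3%, 82.3% and 90.6% in SAM68 libraries, and was kept at 99.6% in another event, with another flank, on 109 reads.

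**Figure D3:**
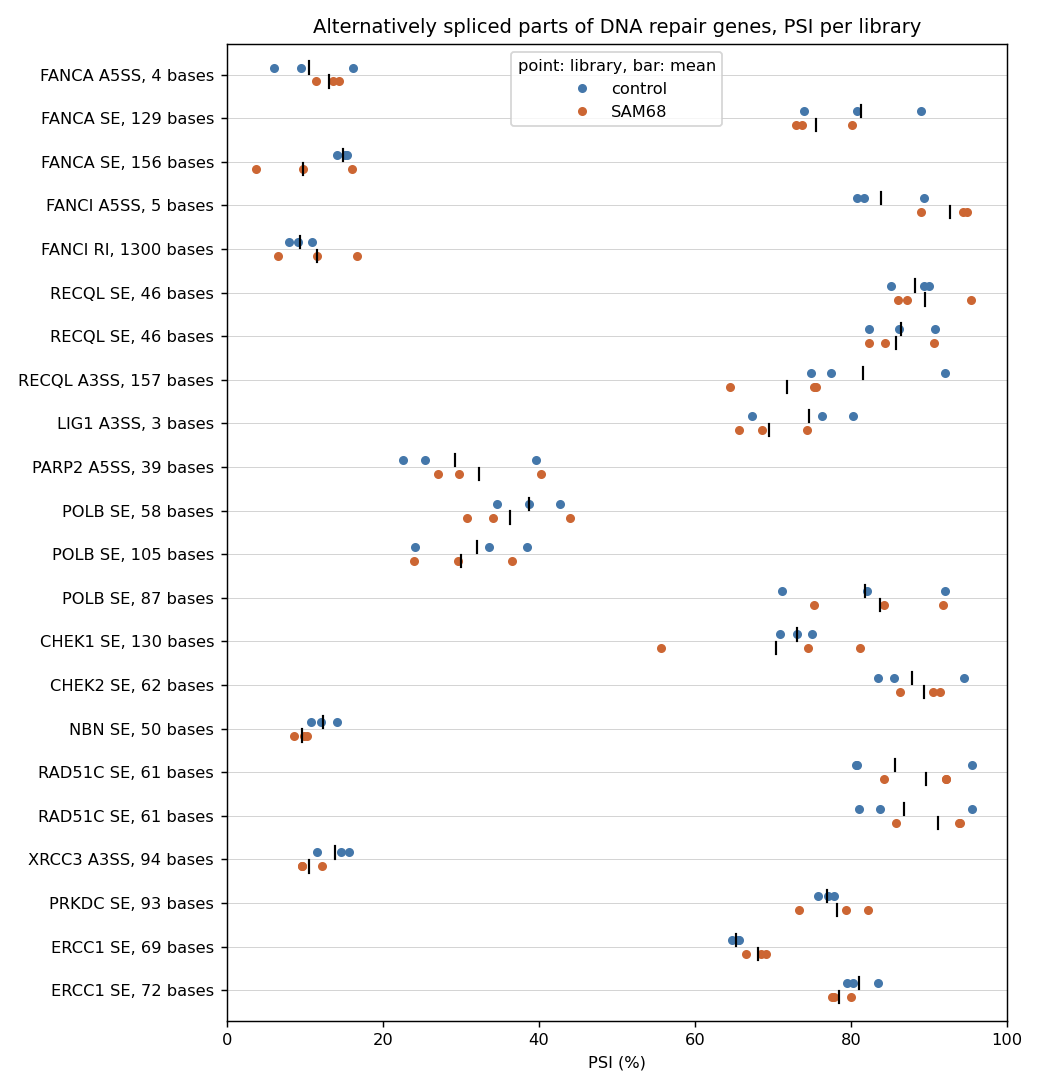
PSI in percent of 22 of the 24 alternative events read 60 times or more per library on average (2 are not reported here), grouped by pathway, with 1 point per library (control blue, SAM68 orange) and a bar at each group mean. The level differs widely between genes, within the limits of 10% and 90% by which the events were chosen, each PSI holds for its own flanking exons, and the 2 groups of a part mostly overlap.

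Retained introns were rare in these genes. The 10 RI events had a median PSI of 2.03%, with 2.33% in control and 1.72% in SAM68 cells, beside 1.2% over all 2591 RI events (1.2% in control and 1.04% in SAM68 cells). No test was made of these medians, and the median of the 10 events ranged from 1.37% to 2.91% over the 6 libraries. Intron 16 of FANCI (1300 bases) had the highest PSI of the 4 introns with 50 reads or more, at 10.9%, 9.09% and 8.03% in control and at 11.6%, 6.56% and 16.7% in SAM68 libraries on 63 to 84 reads. The intron after exon 6 of OGG1, the glycosylase for oxidised guanine, was at 66.7%, 100% and 100% in control and at 100%, 85.7% and 80.6% in SAM68 libraries on 10 to 28 reads. Deeply read introns of ERCC2, XRCC1 and PARP1 stayed at or below 2.55% in every library. None of the 10 events had an unadjusted p under 0.05, against 9.03% of all RI events.

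The level of each gene was taken from its best-read event, as rpm. Fewer cells and less RNA per cell cannot be told apart in these bulk samples. On the scale per length (rpm per 100 effective bases), ERCC1 (198), XRCC6 (193) and XRCC5 (131) were highest, and MLH3 (2.67), WRN (1.93) and BRCA2 (1.37) were lowest. BRCA2 was read at 5.0, 2.39 and 2.68 rpm in control and at 2.84, 2.39 and 2.57 rpm in SAM68 libraries, so that its splicing rests on few reads.

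No DNA repair gene passed the test of junction reads. Of 55 genes tested, 0 were called (adjusted p under 0.05 and a log2 fold change of 1 or more in either direction) and 0 passed the adjusted p alone, where 0.0493% of all 10144 genes were called and 0.414% passed. With an unadjusted p under 0.05, 3 genes (5.45%) were found, against 12.1% of all genes, and all 3 were lower in SAM68 cells, where 8.32% of all genes were. With limma-voom, an alternative chosen after seeing the data, and with the summed reads of all events, 0 members passed the adjusted p as well. Of all genes, 50 of 10144 and 18 of 10486 passed in these settings. The 95% interval of the fold change lay within 1 log2 unit of 0 for 52 of the 55 genes and within 0.5 for 32. The median log2 fold change was -0.095 over the members and -0.035 over all genes (-0.053 and -0.029 without the second control or the first SAM68 library, -0.054 and -0.038 with summed reads), and 38 of 55 members (69.1%) lay below 0, beside 57.0% of all genes.

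The 3 genes were ATR, TP53BP1 and PRKDC. ATR was read at 21.0, 14.5 and 20.4 rpm in control and at 11.4, 10.6 and 16.3 rpm in SAM68 libraries, which overlap (log2 fold change -0.53, SE 0.21, limma adjusted p = 0.265). TP53BP1, which protects broken ends from resection, was at 41.6, 39.8 and 33.0 rpm in control and at 30.6, 37.5 and 22.8 rpm in SAM68 libraries (-0.35, SE 0.15, adjusted p = 0.355). The TP53BP1 value was -0.16 without the third SAM68 library and -0.024 with the summed reads of all its events. PRKDC was at 267, 275 and 272 rpm in control and at 239, 233 and 249 rpm in SAM68 libraries, which did not overlap (-0.17, SE 0.060, adjusted p = 0.205). The groups did not overlap in 4 of the 55 genes (PRKDC, PMS1, FANCI and CHEK2), against 16.8% of all genes.

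The 5 lowest fold changes were those of MLH3 (log2 -0.64, SE 0.33), ATR, PMS1 (-0.36, SE 0.18), TP53BP1 and ATM (-0.33, SE 0.28). PMS1, a mismatch repair factor, was at 18.5, 18 and 20.9 rpm in control and at 15.6, 13.0 and 15.8 rpm in SAM68 libraries (adjusted p = 0.426). The 5 highest were WRN (0.45, SE 0.44), OGG1 (0.34, SE 0.21), BRIP1 (0.28, SE 0.27), BARD1 (0.24, SE 0.25) and BRCA1 (0.23, SE 0.25). WRN, a RecQ helicase, was at 1.03, 6.37 and 2.85 rpm in control and at 4.74, 2.75 and 4.77 rpm in SAM68 libraries. The groups overlapped in all 5 genes, which had an adjusted p of at least 0.553.

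**Figure D4:**
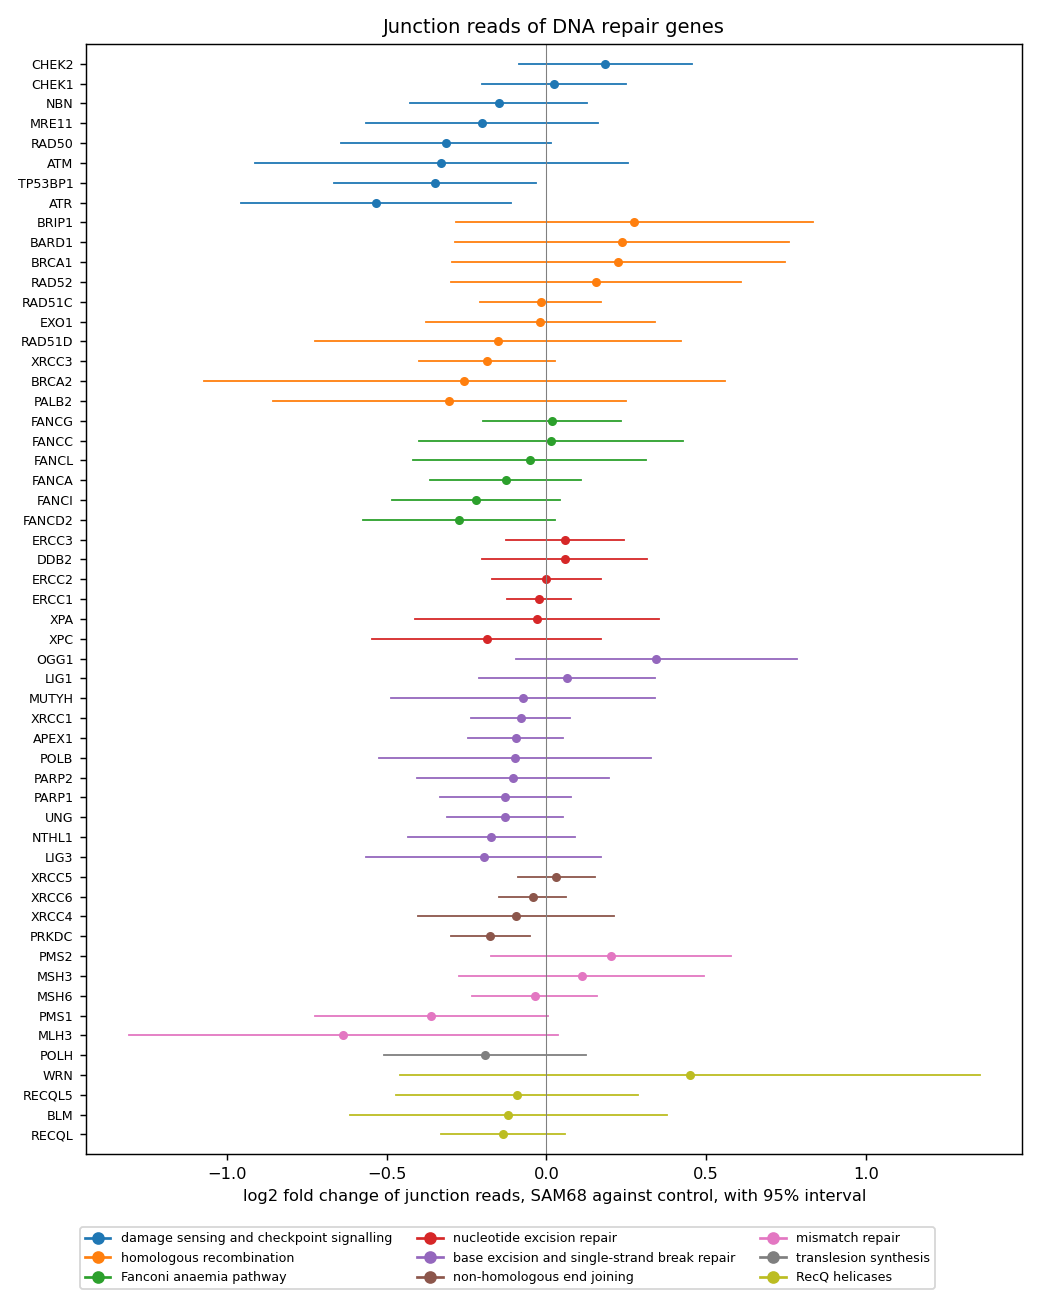
Points give the log2 fold change of junction reads (SAM68 against control) of the 55 genes tested, ordered by pathway and coloured by it, and lines give the 95% interval from limma. The intervals of 52 genes stay within 1 log2 unit of 0, and those of ATR, TP53BP1 and PRKDC lie below 0 before adjustment for the number of genes tested.

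No further repair gene passed the test either. Of a list of 89 further repair genes, such as the replication protein A subunits, the RFC clamp loader, TFIIH subunits and several polymerases, 79 were tested in junction reads, and 0 passed the adjusted p by limma. The count at an unadjusted p under 0.05 was 6 (7.59%), with CDK7 (log2 -0.16), CUL4A (-0.25), RAD17 (-0.41) and TOPBP1 (-0.29) lower and PCNA (0.15) and TIMELESS (0.25) higher in SAM68 cells. Their 641 events held 0 called and 0 past the adjusted p, and 47 (7.33%) had an unadjusted p under 0.05.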

How the data were processed

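The authors filtered the paired-end NovaSeq reads, ran fastp 0.20.0, trimmed the read starts, and aligned with HISAT2 2.1.0 (versions per the labels) to GRCh38. They listed events with rMATS, whose version and annotation are not given in the sources used here. The deposited tables hold other values than plain numbers: lists of 3 raw junction counts and of 3 inclusion levels per group, without replicate numbers. They also hold the authors' p-value, FDR and inclusion difference, which were not used. The first list was taken as control because the study names the contrast in that order, and KHDRBS1 was then higher in the SAM68 lists. Columns left unused for want of a sample: 0.

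Among A3SS events, 275 had regrouped digits, of which 148 were recovered and 127 left out. Of 47450 SE exons, 99.92% were preceded by AG in GRCh38.

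PSI, the quasi-binomial test (spread moderated by squeezeVar within a type, never below binomial) and rpm were computed in R 4.3.3 with limma 3.58.1. For genes, log2(rpm + 0.5) was tested with limma, in place of the planned count test, which was not run. Intervals are at 95% and p-values are adjusted by Benjamini-Hochberg. Fold changes are on the log2(rpm + 0.5) scale. Tests were checked on simulated counts.

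The members, lists and tests were chosen with earlier results of these data known. Named by rule were called events, per pathway the smallest p among events with 50 reads and 5 points and the best-read event with a PSI of 10% to 90%, and genes by fold change (5 per end) and level (3 per end). Other names were chosen after their values were seen. In the main tests, p-values rest on the spread between 3 libraries per group, moderated toward that of all events of a type or of all genes. A few sequences and parts are not reported here.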

Additional observations from a re-analysis of the deposited data

How the results depend on the processing

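The count of 0 called member events, and of 0 past the adjusted p, stayed 0 in the settings that follow. They were own spread per event (0.00301% of all events passed the adjusted p), limma on logit PSI (0.00603%) and a minimum of 20 reads (0.116%). The others were no minimum (0.00389%), adjustment over all 5 types (0.0663%) and without any 1 library (0.00302% to 0.00452%). With such shares, a 0 among the members says little about them. A limit of 5 points and PSI without length normalization do not enter the p-value, so that neither could add a call. Under the likelihood ratio test on pooled counts it was 7 called and 32 past the adjusted p (2.04% and 6.24% of all events). With a spread shared within a type, chosen after seeing the data, they held 1 and 1 (FANCI, beside 0.188% and 0.452% of all events). The number of called member genes stayed 0 under every setting tried (limma-voom and median-ratio scaling were chosen after seeing the data). Of all genes, 1 to 12 were called in these settings, out of 7919 to 11498 tested, so that this 0 says little about the members. KHDRBS1, which is no member, ranged from 1.96 to 2.00 (log2) without 1 library. The median PSI of retained introns was 1.40% with a minimum of 20 reads, 3.41% without length normalization and 1.58% to 2.21% without 1 library.

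Without 1 library (numbered by its place in the list of its group), the ∆PSI of the XRCC1 pair ranged from -0.205 to 2.71 points and that of the 46-base RECQL exon from -3.12 to 1.52. The log2 fold change of WRN ranged from -0.10 to 0.98 and that of BRIP1 from -0.050 to 0.50. Among events not named by the rule, the ∆PSI of CHEK2 exon 8 turned sign without control library 2. Those of PRKDC exon 80 and POLB exon 2 did so without SAM68 library 1. FANCA exon 30 without control library 3, and BRCA1 exon 13 without SAM68 library 1, moved by over 1.5 times. The remaining values named by the rule kept their sign, and those below moved by over 1.5 times in 1 direction or both. In points, RAD51C exon 6 ranged from -8.70 to -2.13 (lowest in size without SAM68 library 1), POLH exon 2 from -10.1 to -3.28 (SAM68 library 2), ATR exon 41 from -10.2 to -5.18 and the FANCG pair from -8.18 to -2.05 (SAM68 library 3), the RECQL extension from -13.0 to -4.42 (control library 1), and ERCC1 exon 8 from -3.43 to -1.41, the UNG pair from -6.51 to -3.45 and the XRCC6 pair from -3.69 to -1.77 (control library 3). The RAD51C pair ranged from -3.56 (without control library 2) to -0.559 (control library 1), the NBN pair from -2.57 (SAM68 library 2) to -0.827 (control library 3), the MSH6 pair from 0.973 (control library 3) to 6.98 (control library 2) and the POLH pair from 3.68 (SAM68 library 1) to 10 (SAM68 library 3). In log2 units, ATM ranged from -0.66 (control library 1) to -0.073 (SAM68 library 1), TP53BP1 from -0.51 to -0.16 (SAM68 library 3), MLH3 from -0.92 to -0.38 (control library 2), BARD1 from 0.061 (SAM68 library 2) to 0.47 (control library 2), BRCA1 from 0.031 (SAM68 library 2) to 0.41 (SAM68 library 3) and OGG1 from 0.20 (control library 3) to 0.52.

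With the reads of all events summed, BRIP1 was at -0.42, BRCA1 at -0.020, TP53BP1 at -0.024, MLH3 at -0.17, PMS1 at -0.18, ATM at -0.60, OGG1 at 0.19, WRN at 0.25 and BARD1 at 0.11. ATR was at -0.44 there (limma, adjusted p = 0.0738), and ATM had an adjusted p of 0.0996, both short of the threshold. Without length normalization, ATR exon 41 was at -4.17 points, POLH exon 2 at -3.86, PMS2 exon 2 at 5.80 and the RECQL extension at -6.16. The cause was not tested. DESeq2 and edgeR with TMM were planned and not run. No paired analysis was possible because the lists carry no replicate numbers. Depth limits the events under 50 reads.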
